A study of Mus musculus with 132 samples.

Results

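Genes of oxidative phosphorylation were followed in single cells of mouse preimplantation embryos. The members were the genes whose symbols begin with mt-, Ndufa, Ndufb, Ndufc, Ndufs, Ndufv, Uqcr, Cox4 to Cox8 or Atp5, without symbols that end in -ps, which left out 1 gene (Ndufb1-ps). Of the 32245 genes in the count table, this gave 13 encoded by the mitochondrial genome and 89 by the nucleus. By complex, the nuclear members comprised 7 core and 29 accessory subunits of complex I, 8 assembly factors of complex I, 8 genes of complex III, 20 of complex IV and 17 of complex V. Complex II has no gene under this naming rule and is described with the related genes at the end.

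The embryos came from C57BL/6NCrl x DBA/2NHsd F1 females mated to F1 males of the same cross. They were cultured from the 2-cell stage with a mimic of miR-381-3p, a synthetic RNA that stands in for this microRNA, or with a scrambled control mimic, both added to the medium droplet. Smart-seq2 libraries of single cells were made on embryonic day 2.5, with 8 cells in the embryo, or on day 3.5, with 32, and gave 30 control and 24 mimic-treated 8-cell cells and 39 control and 39 mimic-treated 32-cell cells. Mimics were used at 5 or 10 µM. By the study's description the higher dose goes with the earlier and the lower dose with the later stage, and the labels give no dose per cell. The control mimic was used at the concentration of the mimic, so stage and dose cannot be told apart in treated or in control cells. The labels also do not tie cells to embryos, and each of the 4 groups was therefore treated as 1 sample, with no test between groups. Values are CPM (a gene's counts over all counts, times 1e+06) of the pooled counts of a group, all genes included, with a 95% Poisson interval that covers counting error only, beside the lowest, median and highest cell. Differences are on the log2(CPM + 1) scale, and a gene at 20 CPM or more in either group is said to have risen or fallen only where it differed by 2-fold or more. The 4 comparisons share groups, so they are not independent of each other.

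The respiratory chain passes electrons from complexes I and II through coenzyme Q, complex III and cytochrome c to oxygen at complex IV, and pumps protons across the inner mitochondrial membrane on the way. Complex V, the ATP synthase, lets the protons return and makes ATP. Most subunits are encoded in the nucleus and imported, whereas a small set of core subunits of complexes I, III, IV and V is made inside the mitochondrion from long transcripts that are cut into the single messenger RNAs. Preimplantation embryos inherit their mitochondria from the egg, and the 32-cell stage is the time at which the blastocyst forms its inner cell mass (ICM) and trophectoderm (TE).

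Total counts per cell ran from 544866 to 3461022 and genes with a count from 3243 to 8983. The 3 cells with fewer than 5000 genes were all treated 8-cell cells (3243 to 4881 genes, with at least 5919 in any other cell), so values of the genes named are also given without them where this moved a 2-fold call. Markers of TE summed to 346 CPM in control and 466 CPM in treated 8-cell cells, and to 5722 and 5551 CPM at 32 cells. Those of the ICM summed to 2044 and 1389 CPM in control and treated 8-cell cells, and to 1411 and 1130 CPM at 32 cells. Of 9 cumulus cell markers 6 or 7 were at 0 in each group. These markers summed to 100.7 and 44.7 CPM in control and treated 8-cell cells (per cell 0 to 314 and 0 to 150.6 CPM) and to 5.57 and 9.38 CPM at 32 cells, and their part in the differences between stages was not tested. By Xist and Y-linked counts, all 39 control 32-cell cells had Y-linked counts and all 39 treated 32-cell cells had Xist, while the 8-cell groups held both kinds (23 Xist and 7 Y in control; 14 Xist, 8 Y and 2 with neither in treated cells).

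Several mitochondrial genes have near-identical copies in the nucleus, and the sequences are shown because they limit how the counts of the 13 can be read. In GENCODE M21 (GRCm38), a run of unprocessed pseudogenes on the minus strand of chromosome 1, between positions 24611535 and 24616197, matches the stretch from the 3' part of mt-Co1 to within mt-Nd4 nearly base for base, in the order of the genes. The first 30 bases of mt-Co2 (chrM:7013-7042, plus strand) and of its copy Gm28661 (chr1:24615536-24615565, minus strand) show the match, and those of mt-Nd3 (chrM:9459-9488) and Gm28438 (chr1:24613090-24613119, minus strand) show the only difference found over that gene. In the mt-Nd3 pair the capital marks the differing base, and no base of the mt-Co2 pair differs.
mt-Co2: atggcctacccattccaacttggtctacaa
Gm28661: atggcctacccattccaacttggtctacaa
mt-Nd3: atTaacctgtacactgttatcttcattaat
Gm28438: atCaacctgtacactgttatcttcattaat
Counted from the first base of mt-Nd3, the difference was T3C. Without gaps, 681 of 681 aligned bases were identical for mt-Co2, 678 of 678 for mt-Atp6 (copy Gm10925), 783 of 783 for mt-Co3 (Gm28437), 344 of 345 for mt-Nd3, 294 of 294 for mt-Nd4l (Gm10222) and 876 of 876 for mt-Nd4 (Gm28439), whose copy covers 63.6% of the gene. Of mt-Co1, 492 bases at the 3' part were aligned to Gm29216, with 6 differences, and its sequence is also shared with other genes, 3 in all.

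The mitochondrial genes fell into a measured and an unmeasured set, and the sets largely follow the shared sequence. As the percentage of 50-base words that also occur in another gene's transcript, mt-Co2 had 100, mt-Co3 99.9, mt-Atp6 99.5, mt-Nd4l 98.8 and mt-Nd3 98.0. These 5 genes were listed at 2.15 CPM or less in every group, and mt-Nd4l at 0 in every cell. At the other end, mt-Nd1, mt-Cytb and mt-Nd6 shared no such word, mt-Nd5 and mt-Nd2 shared 7.61 and 8.19%, and these 5 genes stood between 536 and 18645 CPM. Genes with a partial copy were measured too, mt-Co1 (51.1% shared) at 2175 to 8176 CPM and mt-Nd4 (62.2%) at 1857 to 3432 CPM.
The exception was mt-Atp8, which shared no word with an annotated transcript and was nevertheless listed at 0.467 to 0.507 CPM. It lies between mt-Co2 and mt-Atp6 (chrM:7766-7969), its 3' end overlaps the start of mt-Atp6 (chrM:7927-8607), and most of the matching place on chromosome 1 is an unannotated stretch between Gm28661 and Gm10925 that was not read here. The chromosome 1 copies are not among the genes of the count table, and what the counting did with reads that match both places was not tested. Levels of mt-Co2, mt-Co3, mt-Atp6, mt-Atp8, mt-Nd3 and mt-Nd4l are therefore given as listed values only, with no statement on their expression, so that mt-Co1 alone stands for the mitochondrial part of complex IV and no gene for that of complex V. Among nuclear members the shared percentage was lower. It reached 36.7% in Atp5g2 (c subunit of ATP synthase, copy Gm10175) and was 10 to under 50% in 11 members and under 10% in 78, with medians of 63.5 and 59.4 CPM in control 8-cell cells.

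**Figure D1:**
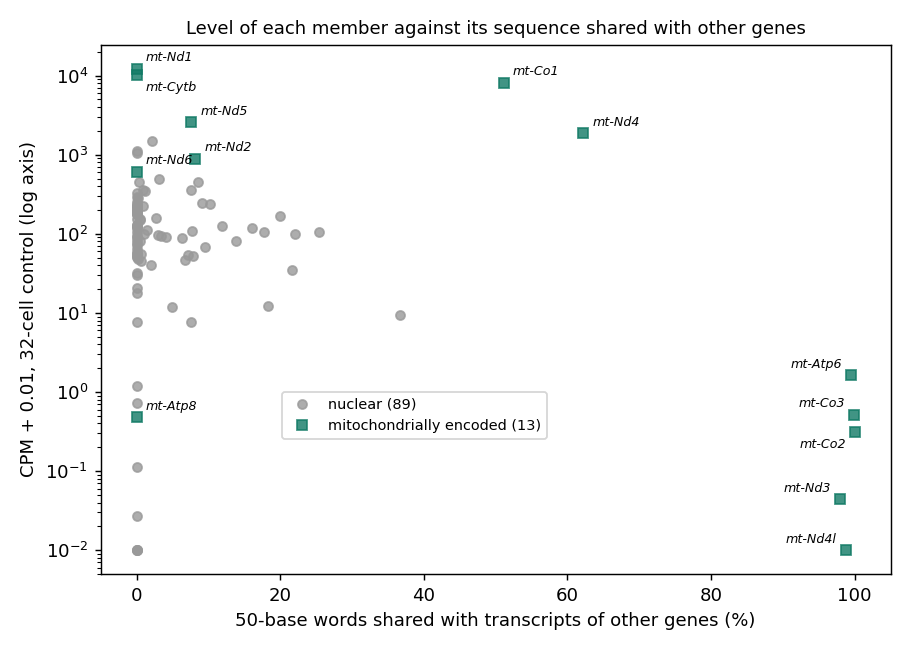
Percentage of a gene's 50-base words found in another gene's transcript (x axis) against pooled CPM + 0.01 in 32-cell control embryos (y axis, log scale), with 1 point per mitochondrial or nuclear member. Of the 7 mitochondrial genes at 50% or more, 5 sit at the bottom right with low values, while mt-Co1 and mt-Nd4 are high and mt-Atp8 is low with 0% shared.

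Among the 7 measured mitochondrial genes the stage of the embryo changed the make-up more than the sum. mt-Nd2, a membrane subunit of complex I (chrM:3914-4951), fell and mt-Co1, the catalytic subunit of complex IV (chrM:5328-6872), rose from 8 to 32 cells in control and in treated embryos. Per cell, mt-Nd2 ran from 2399 to 6925 CPM with a median of 4476 in control 8-cell cells, and from 339 to 2587 CPM with a median of 717 in control 32-cell cells. In treated cells it ran from 2780 to 15733 (median 5878) at 8 cells and from 377 to 4208 CPM (median 944) at 32 cells. In each treatment 38 of 39 32-cell cells lay below the lowest 8-cell cell. Pooled, mt-Nd2 fell by 2.27 in control and by 2.30 in treated embryos on the log2 scale, from 4316 CPM (95% interval 4295 to 4337) to 893 (885 to 901) and from 5807 (5781 to 5834) to 1180 (1171 to 1189).
The values of mt-Co1 went the other way. Its cells ran from 1345 to 7185 CPM (median 2576) in control and from 900 to 3481 CPM (median 2428) in treated 8-cell embryos, against 4961 to 15148 (median 7685) and 4008 to 10605 CPM (median 6644) at 32 cells. The ranges did not overlap in treated embryos, and in control embryos 23 of 39 32-cell cells lay above the highest 8-cell cell. The pooled differences were 1.44 and 1.69. The ratio of both genes within a cell does not depend on the library total. It was 0.364 to 1.27 mt-Co1 counts per mt-Nd2 count in control 8-cell cells and 3.93 to 22.8 in control 32-cell cells, and 0.175 to 0.567 and 2.09 to 17.7 in treated cells, so all 39 and all 39 32-cell cells were above every 8-cell cell of the same treatment. Of all genes tested, 30.1% rose and 19.7% fell by 2-fold or more with stage in control embryos, and 29% rose and 18.7% fell in treated ones.

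The other 5 measured mitochondrial genes stayed under 2-fold. Cytochrome b (mt-Cytb), the subunit of complex III that the mitochondrion encodes, was the most abundant of them at 8 cells. It stood at 18645 CPM in control 8-cell cells (cells 11847 to 31843, median 17533), 13232 in treated 8-cell cells (3519 to 18355, median 13978), 10186 in control 32-cell cells (5892 to 18500, median 9198) and 8790 in treated 32-cell cells (3527 to 16102, median 7630). The difference with stage was -0.87 in control and -0.59 in treated embryos, and 29 of 39 control 32-cell cells lay below the lowest control 8-cell cell. The membrane subunit gene mt-Nd1 was at 12854 and 12247 CPM in control 8-cell and 32-cell cells (-0.07) and higher at 32 cells in treated ones, at 10108 and 14478 CPM (0.52). For mt-Nd4, mt-Nd5 and mt-Nd6, further membrane subunits of complex I, the differences with stage were -0.87, -0.61 and -0.53 in control and -0.80, -0.40 and -0.56 in treated embryos. Per cell, mt-Nd1 took a median of 27.1% of mitochondrial counts in control 8-cell cells and 33.7% in control 32-cell cells, mt-Cytb 39.4 and 27.3%, mt-Co1 5.90 and 22.8%, and mt-Nd2 9.52 and 2.19%. These genes are transcribed together, apart from mt-Nd6 on the other strand, and share a library, so they are not independent of each other. Smart-seq2 does not keep the strand, so RNA from either strand over mt-Nd6 (chrM:13552-14070), whose 3' end overlaps that of mt-Nd5 (chrM:11742-13565), cannot be told apart.

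**Figure D2:**
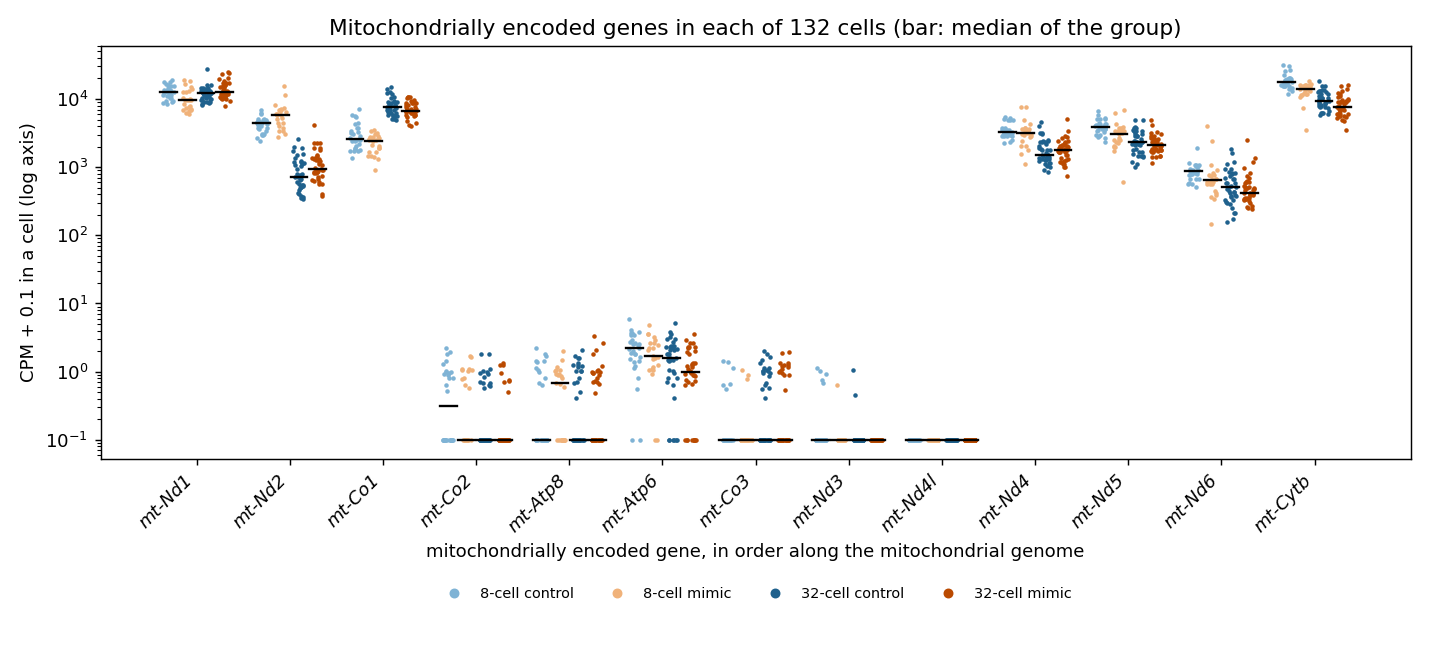
CPM + 0.1 in each cell (y axis, log scale) of the 13 mitochondrially encoded genes (x axis, in genome order) in the 4 groups, with 1 point per cell and a bar at the median of each group. The values of mt-Nd2 are lower and those of mt-Co1 higher at 32 cells in both treatments, mt-Nd1 overlaps between stages, and the 6 genes from mt-Co2 to mt-Nd4l are at or near 0 in every group.

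Between treated and control cells mt-Nd2 and mt-Co1 differed less than with stage, while mt-Nd1 differed by more than it did with stage in control embryos. At 8 cells mt-Nd2 differed by 0.43 between treated and control cells and mt-Cytb by -0.49, mt-Co1 by -0.47, mt-Nd5 by -0.40, mt-Nd1 by -0.35, mt-Nd6 by -0.16 and mt-Nd4 by -0.08, so that 6 of 7 were lower and none reached 2-fold. For mt-Cytb, 1 of 24 treated cells lay above the control median. At 32 cells the differences were 0.40 for mt-Nd2, 0.24 for mt-Nd1, -0.22 for mt-Co1, -0.21 for mt-Cytb, -0.19 for mt-Nd5 and mt-Nd6 and -0.01 for mt-Nd4. Of all genes tested at 8 cells 7.07% were higher and 5.74% lower by 2-fold or more in treated cells, and at 32 cells 6.67 and 5.28%.

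Summed over all 13 genes, mitochondrial transcripts took 4.71% of counts in control 8-cell cells (Clopper-Pearson 95% interval 4.70 to 4.72), 3.83% in treated 8-cell cells (3.83 to 3.84), 3.66% in control 32-cell cells (3.65 to 3.66) and 3.61% in treated 32-cell cells (3.61 to 3.62). Over cells the share ran from 3.40 to 7.34% (median 4.50), 1.54 to 7.24% (3.91), 2.32 to 7.16% (3.52) and 2.14 to 5.93% (3.48), and the ranges overlapped throughout. Of the 32-cell cells, 18 of 39 in control and 0 of 39 in treated embryos lay below the lowest 8-cell cell of their treatment. At 8 cells 6 of 24 treated cells lay above the control median and 7 lay below the lowest control cell. Without the 3 treated cells of few genes the treated share was 4.004%. The 2 control 8-cell cells of the second run of title numbers stood at 3.62% together. Fewer mitochondrial transcripts and more transcripts of other genes in a cell cannot be told apart in a share. The mitochondrial genes listed near 0 add next to nothing to the sum over all 13, so it stands for the 7 measured genes only.

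The summed share of nuclear subunits was higher at 32 cells, whereas that of the mitochondrial genes, which rests on the 7 measured ones, was not. Without the assembly factors, nuclear subunits took 0.883% of counts in control 8-cell cells (per cell 0.728 to 1.10, median 0.862) and 1.43% in control 32-cell cells (1.09 to 1.99, median 1.40). In treated cells the shares were 0.952% (0.769 to 1.40, median 0.926) and 1.48% (1.23 to 1.90, median 1.46). All 39 cells of both 32-cell groups lay above the 8-cell median of their treatment, and 38 of 39 control cells lay above the highest control 8-cell cell, as did 28 of 39 among treated cells. The increase was present in each complex: in control embryos the core subunits of complex I went from 0.0739 to 0.137% of counts, its accessory subunits from 0.159 to 0.293%, complex III from 0.115 to 0.227%, complex IV from 0.155 to 0.239% and complex V from 0.380 to 0.534%.
The relation of the mitochondrial to the nuclear share across cells differed in sign and size between groups. As a description over cells of 1 library each, Pearson's r was -0.28 in control (n = 30) and 0.03 in treated 8-cell cells (n = 24), and 0.50 and 0.30 in control and treated 32-cell cells (n = 39 each). Both shares have the same total in a cell as denominator.

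**Figure D3:**
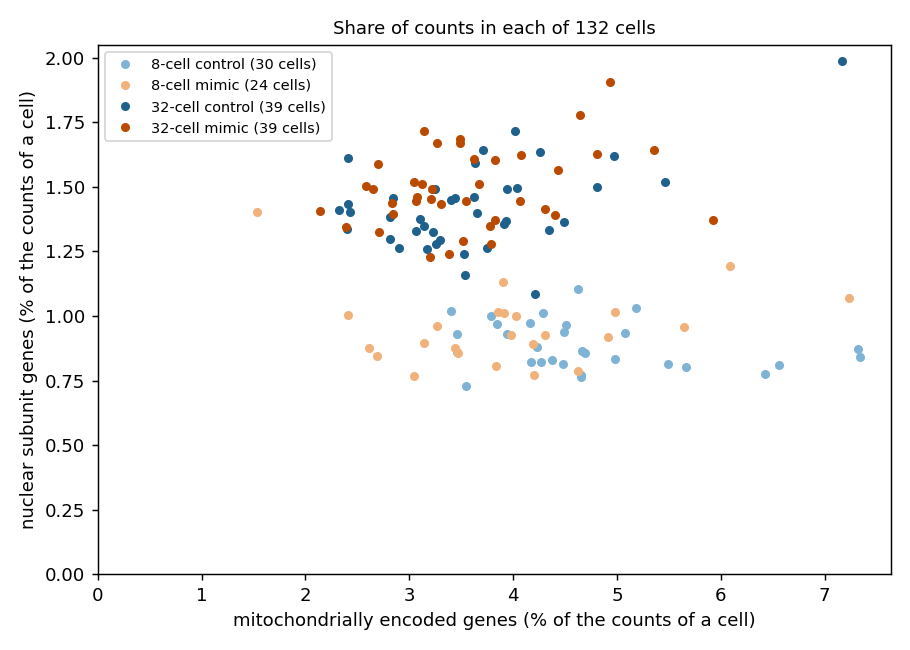
Percentage of a cell's counts in mitochondrial genes (x axis) and in nuclear subunits (y axis) for every cell of the 4 groups. The 32-cell cells lie above nearly all 8-cell cells on the nuclear axis, while the groups overlap on the mitochondrial axis.

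Among the 89 nuclear members, 70 and 71 reached 20 CPM in control and treated 8-cell cells and 75 in both 32-cell groups, with 3 to 6 at 0 in a group, which allows up to 0.0933 CPM. The median member stood at 61.8, 63.2, 100.1 and 116.2 CPM in control 8-cell, treated 8-cell, control 32-cell and treated 32-cell cells. From 8 to 32 cells the median difference over nuclear members was 0.67 in control embryos (76 tested, 69 above and 7 below 0) and 0.66 in treated embryos (75 tested, 73 above and 2 below), beside 0.22 and 0.20 over all genes. In control embryos 23 members rose and 1 fell, against 30.1 and 19.7% of all genes. In treated embryos 20 rose and none fell, against 29 and 18.7%. The count of members that rose was thus near the background share in both treatments (23 of 76 and 20 of 75), while few members fell. A total of 14 members rose in both treatments, among them Ndufs4, Ndufs6, Ndufa4, Ndufa5, Ndufa6, Ndufa7, Ndufa10, Ndufa13, Ndufb5, Ndufb9, Ndufc2, Ndufaf3 and Cox7b. Without the 3 treated 8-cell cells of few genes, 21 members rose in treated embryos: the differences of Ndufb5 (1.02) and Cox7a2l (1.02) were 0.99 and 0.96, and those of Ndufb3 (0.96), Ndufa3 (0.96) and Ndufb8 (0.96) were 1.10, 1.02 and 1.02. Ndufb5 then no longer rose in both treatments, and Ndufb3, at 1.27 in control embryos, did.

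**Figure D4:**
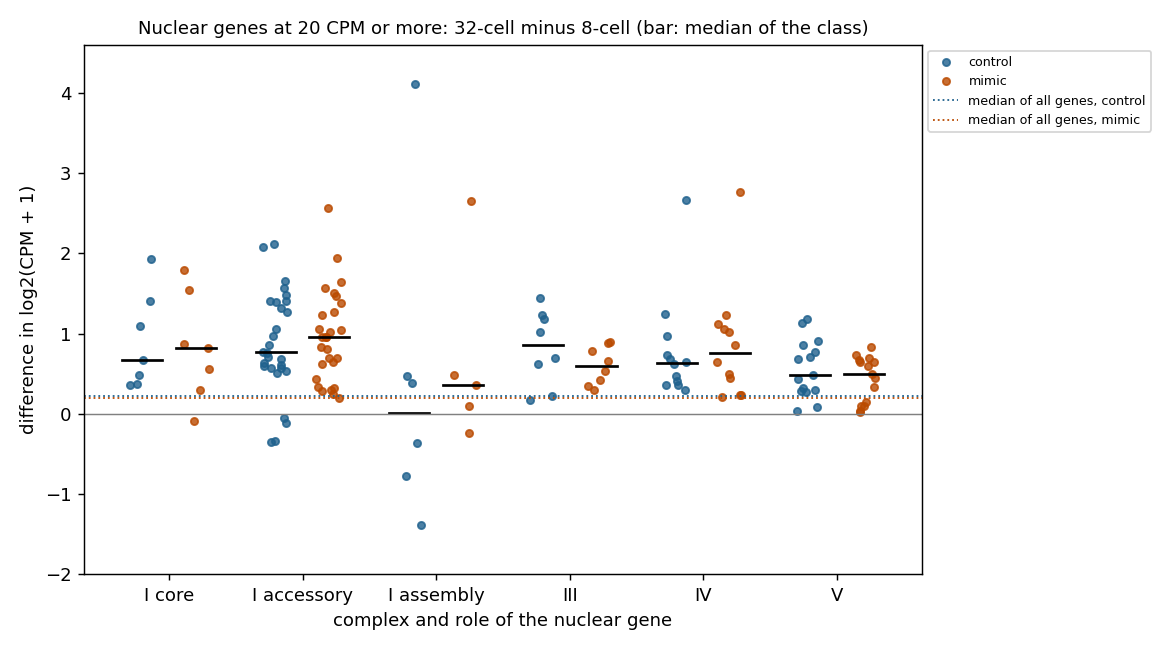
Difference between 32-cell and 8-cell embryos on the log2(CPM + 1) scale (y axis) for each nuclear member at 20 CPM or more, by complex and role (x axis), in control and treated embryos, with a bar at the median of each class and dotted lines at the medians of all genes tested. Most points of every class lie above 0 apart from the assembly factors of complex I in control embryos, and a few core and accessory subunits of complex I are also below 0.

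Complex I takes electrons from NADH at its peripheral arm. Ndufs1, the largest iron-sulfur subunit, and Ndufv1, which binds NADH, rose in control embryos (107.7 to 286 CPM, 1.40, and 98.8 to 212 CPM, 1.10), and in treated embryos they differed by 0.86 and 0.81. Ndufv2, their iron-sulfur partner, showed the opposite order, with 152.7 and 197 CPM in control embryos (0.36) and a rise from 82.6 to 243 CPM in treated embryos (1.54). Over the 7 core subunits the median was 0.67 in control and 0.81 in treated embryos, with 3 and 2 that rose, beside 30.1 and 29% of all genes.

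Of the accessory subunits of complex I, which surround the core and are needed for its assembly and stability, 11 of 28 tested rose in control and 12 of 28 in treated embryos, with medians of 0.77 and 0.96. Of all genes, 30.1 and 29% rose. Ndufa6 (chr15:82350140-82354322) had the largest rise of the class in both treatments. Its cells ran from 0 to 68.5 CPM (median 13.7) in control and 0 to 75.2 CPM (median 14.6) in treated 8-cell embryos, and from 16.6 to 161.05 (median 79.5) and 52.9 to 243 CPM (median 110) at 32 cells. All 39 cells of each 32-cell group were above the 8-cell median of their treatment. The pooled values were 18.4 (17.1 to 19.8), 19.3 (17.8 to 20.8), 82.8 (80.5 to 85.2) and 119 CPM (115.7 to 121), with differences of 2.11 and 2.56.
Ndufs4, whose loss causes a severe encephalopathy in mice, rose from 12.9 to 57.9 CPM in control (2.08) and from 20.3 to 59.7 CPM in treated embryos (1.51), and had a count in 17 of 30 and 18 of 24 8-cell cells against 37 and 38 of 39 32-cell cells. Ndufa10 rose from 92.1 to 293 (1.66) and from 113.03 to 338 CPM (1.57). Ndufc2 rose from 18.96 to 51.7 (1.40) and from 18.4 to 59.6 CPM (1.65). Ndufa8 was at 59.9 and 118.5 CPM in control embryos (0.97) and rose from 39.3 to 153.9 CPM in treated ones (1.94).
In control embryos 4 accessory subunits were lower at 32 cells, none by 2-fold (Ndufv3 -0.36, Ndufb11 -0.34, Ndufb2 -0.11 and Ndufa1 -0.05). Of these, Ndufb11 and Ndufa1 are on chromosome X, and against the 7 Y cells of control 8-cell embryos (46.7 and 18.5 CPM) the control 32-cell cells, all of the Y kind, were higher (68.4 and 32.2 CPM). In treated embryos all 28 were higher.

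The Ndufaf genes encode assembly factors of complex I, which are not part of the finished enzyme. Their medians with stage were 0.01 in control (6 tested) and 0.36 in treated embryos (5 tested), while those of further assembly factors of complex I outside the naming rule were 1.88 (9 tested) and 0.89 (8 tested). Ndufaf7, a methyltransferase of mitochondria, fell in control embryos from 107.1 CPM (cells 0 to 348, median 88.6) to 40.4 CPM (cells 0 to 204, median 35.9), by 1.38, and 6 of 39 control 32-cell cells lay above the 8-cell median. In treated embryos it stood at 47.3 and 40.04 CPM (-0.24). Ndufaf4 was at 87.4 and 50.6 CPM in control (-0.78) and at 49.2 and 52.9 CPM in treated embryos (0.10). Ndufaf3, which works with Ndufaf4 early in assembly, went up instead. It had a count in 1 of 30 control and 6 of 24 treated 8-cell cells and in 30 and 35 of 39 32-cell cells, and rose from 0.259 (0.124 to 0.477) to 20.7 CPM (19.6 to 21.9) and from 4.26 (3.58 to 5.04) to 32.0 CPM (30.5 to 33.5).

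Complex III, which passes electrons from ubiquinol to cytochrome c, showed the highest class median in control embryos, 0.86 over 8 genes, and 0.60 in treated embryos. The core protein gene Uqcrc1 (chr9:108936633-108949623) was its most abundant nuclear member. It ran from 114.6 to 818 CPM (median 506) in control 8-cell, 30.2 to 1191 (median 689) in treated 8-cell, 613 to 1900 (median 1094) in control 32-cell and 108.3 to 1974 CPM (median 1200) in treated 32-cell cells. All 39 control 32-cell cells lay above the 8-cell median and 38 of 39 in treated embryos. It rose from 468 (462 to 475) to 1064 CPM (1055 to 1072) in control embryos (1.18) and was at 676 (667 to 685) and 1244 CPM (1234 to 1253) in treated ones (0.88).
Uqcrc2, the second core protein, rose from 86.3 to 235 CPM in control embryos (1.44), Uqcr11 from 37.6 to 89.3 CPM (1.23) and Uqcrfs1, the Rieske iron-sulfur protein, from 161.1 to 327 CPM (1.01). In treated embryos these differed by 0.42, 0.66 and 0.35, and no gene of complex III rose, against 4 in control (beside 29 and 30.1% of all genes). In each of these genes the treated 8-cell level was above that of control 8-cell cells (171.1, 47.9 and 223 CPM). The difference between both stage differences was not tested.

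Complex IV, cytochrome c oxidase, was higher at 32 cells in all 12 tested nuclear members in both treatments, with medians of 0.63 and 0.75. Cox7b, a small subunit on chromosome X (chrX:106015700-106022450), had the largest rise of all tested subunits. Its cells ran from 0 to 68.9 CPM (median 9.15) and 0 to 83.3 CPM (median 6.14) in control and treated 8-cell embryos and from 30.6 to 185 (median 69.1) and 17.7 to 235 CPM (median 96.8) at 32 cells, all 39 and all 39 of them above the 8-cell median. It rose from 12.1 (11.0 to 13.3) to 81.9 CPM (79.6 to 84.2) and from 12.7 (11.5 to 14.02) to 91.8 CPM (89.3 to 94.4), by 2.66 and 2.76.
Ndufa4, named after complex I but a subunit of complex IV, rose from 94.0 to 223 and from 101.7 to 222 CPM (1.24 and 1.12). The matrix-side subunits Cox5a and Cox5b were at 214 and 357 (0.74) and 64.1 and 127 CPM (0.97) in control embryos and rose from 160 to 378 (1.23) and from 63.2 to 132.2 CPM (1.05) in treated ones. Cox7a2l, which joins complexes III and IV into supercomplexes, was at 63.5 and 81.7 CPM in control (0.36) and rose from 56.9 to 116.2 CPM in treated embryos (1.02, and 0.96 without the 3 cells of few genes).

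Complex V had the smallest class medians among subunits, 0.48 in control and 0.49 in treated embryos, with all 15 tested genes higher at 32 cells. Atp5o, the stalk subunit that confers oligomycin sensitivity (chr16:91925214-91931687), ran from 49.4 to 289 CPM (median 171.7) in control 8-cell and 131 to 648 CPM (median 353) in control 32-cell cells, and from 92.1 to 627 (median 209) to 217 to 583 CPM (median 405) in treated ones. It rose from 163.8 (160 to 167.9) to 361 CPM (356 to 366) in control embryos (1.14), and was at 230 (225 to 235) and 383 CPM (378 to 388) in treated embryos (0.73). Atp5e, the epsilon subunit of the central stalk, rose from 31.5 to 72.7 CPM in control (1.18) and was at 41.7 and 65.8 CPM in treated embryos (0.65). The catalytic beta subunit gene Atp5b was the most abundant nuclear member in all groups by CPM, at 1202, 1122, 1479 and 1528, and differed with stage by 0.30 and 0.44.
Per kilobase of exon, the class medians in control 8-cell cells were 37.5 CPM for core and 33.0 for accessory subunits of complex I, 20.7 for its assembly factors, 87.3 for complex III, 36.3 for complex IV and 61.1 for complex V. At 32 cells they were 90.6, 75.3, 12.3, 130, 61.4 and 99.7 CPM per kilobase. By these medians complexes III and V were highest and the assembly factors lowest at both stages in control cells. The medians take in every member of a class, with no minimum. The 20 genes of complex IV include tissue isoforms at or near 0, so its place in this order depends on them. In treated 32-cell cells complex III was highest (143.4 CPM per kilobase), and the core of complex I (95.6) was above complex V (91.6).

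Few nuclear members differed by 2-fold between treated and control cells at either stage. At 8 cells the median difference between treated and control cells was 0.09 over 72 nuclear members (44 above and 28 below 0), beside 0.04 over all genes. The direction was not the same within both kinds of cell: the median was -0.02 in Xist cells (33 above and 41 below 0) and 0.34 in Y cells (54 and 19). In Y cells, of which there were 8 treated and 7 control, 8 of 73 members rose and 4 fell, beside 1177 and 1299 of 6770 genes. Over all cells none rose and 2 fell, both assembly factors of complex I, against 7.07 and 5.74% of all genes. The factors that fell were Ndufaf7, from 107.1 (103.8 to 110) to 47.3 CPM (45.0 to 49.8), by 1.16, and Ndufaf6, from 23.4 (21.9 to 24.98) to 9.02 CPM (8.01 to 10.1), by 1.28. Ndufaf6 (chr4:11051045-11076205) had a count in 18 of 30 control and 5 of 24 treated cells, with a highest cell of 77.8 and 68.7 CPM. For Ndufaf7 (chr17:78937136-78948052), 3 of 24 treated cells lay above the control median. With Ndufaf4 at -0.81, 4 of the 5 tested Ndufaf genes were lower in treated 8-cell cells, where 53.1% of all genes were higher, and their share of counts lay above the control median in 5 of 24 treated cells. The assembly factors of complex I outside the naming rule had a median of 0.43, with 5 of 6 higher and 1 that rose. Ndufaf2, also an assembly factor, was below the minimum in both groups, at 7.24 CPM in control and 19.8 CPM in treated cells (1.34).
Without the 3 treated cells of few genes, Ndufaf6 and Ndufaf7 differed by -1.10 and -1.05, and Ndufv2 was past 2-fold as well, at -1.14 (-0.88 with them), while Ndufaf2 reached the minimum at 22.7 CPM with a difference of 1.52.

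Among the subunits of complexes I and III the larger differences at 8 cells went in both directions. Uqcrc2 was at 86.3 CPM (83.3 to 89.2) in control and 171.1 CPM (166.6 to 175.7) in treated 8-cell cells (0.98), with cells from 0.585 to 194 (median 81.9) and from 2.33 to 343 CPM (median 154.97), and 21 of 24 treated cells lay above the control median. Ndufa13, an accessory subunit of complex I also known as GRIM-19, was at 39.8 and 72.8 CPM (0.86), Ndufb3 differed by 0.67, Ndufa12 by 0.65 and Uqcrc1 by 0.53. Ndufv2 (-0.88), Ndufa8 (-0.60) and Uqcrh, the hinge protein of complex III (-0.54), were lower. In complexes IV and V the largest differences were -0.41 for Cox5a and 0.49 for Atp5o. Summed by complex, complex III took 0.149% of treated against 0.115% of control counts, and 23 of 24 treated 8-cell cells lay above the control median. For the accessory subunits of complex I the shares were 0.186 and 0.159%, with 20 of 24 treated cells above the control median. Within Xist cells 15 of 27 accessory subunits were higher in treated cells (median 0.03, beside 0.05 over all genes), and within Y cells 21 of 27 (0.49, beside 0.02).

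At 32 cells the median difference between treated and control cells was 0.09 over 75 nuclear members (49 above and 26 below 0) and 0.01 over all genes, and it was -0.01 under TMM and -0.00 under median-of-ratios scaling, which moved the median of all genes to -0.11 in both cases. The 32-cell cells were clustered without the members, and each cluster was called ICM-like or TE-like from marker genes relative to the other 32-cell cluster. All 9 ICM markers were higher in the ICM-like and all 9 TE markers in the TE-like cluster. The call is relative, as most ICM-like cells had a mean log2 level of TE markers above that of ICM markers. Within TE-like cells the median was 0.01 over members (38 above and 38 below 0) and 0.05 over all genes, and within ICM-like cells 0.14 (57 and 19) and 0.02. The groups held these classes in different numbers, 25 ICM-like and 14 TE-like in control and 12 and 27 in treated cells. A single member rose, Ndufa1, and none fell, against 6.67 and 5.28% of all genes. No member rose under TMM or median-of-ratios scaling, after thinning of the cells, at a minimum of 100 CPM or without the third run of treated title numbers. Apart from Ndufa1, the largest differences in complex I were -0.54 for Ndufs1 among core and 0.95 for Ndufb11 and 0.73 for Ndufb6 among accessory subunits. Among assembly factors the largest was 0.60 for Ndufaf3. In the other complexes they were -0.47 for Uqcrh and 0.46 for Uqcrb (III), 0.50 for Cox7a2l and -0.41 for Cox7c (IV), and -0.47 for Atp5g3 and -0.38 for Atp5a1 (V). Uqcrh was lower in treated cells at both stages, at 82.8 and 56.6 CPM at 8 cells and 97.0 and 69.6 CPM at 32 cells.
Of the accessory subunits of complex I, 25 of 28 were higher in treated 32-cell cells, beside 50.5% of all genes. The count was 22 under TMM and 23 under median-of-ratios scaling, beside 41.6 and 42.2% of all genes, and 28 within ICM-like and 22 within TE-like cells, all alternatives chosen after seeing the data. Their summed share was 0.355 against 0.293%, and 37 of 39 treated cells lay above the control median.

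**Figure D5:**
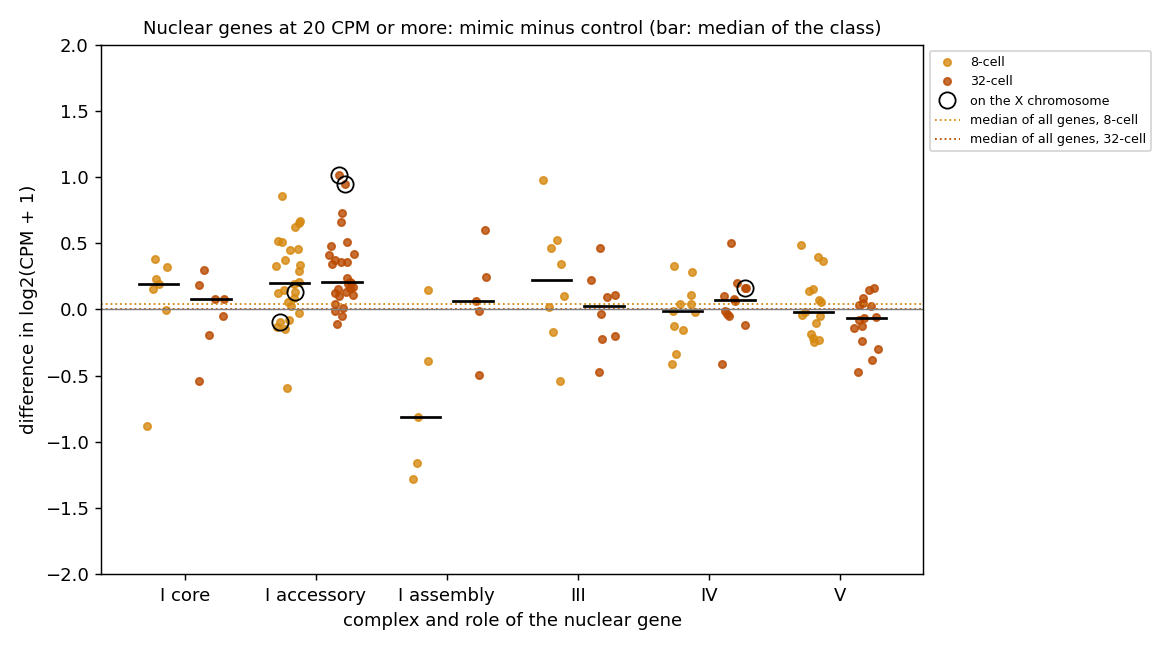
Difference between treated and control cells on the log2(CPM + 1) scale (y axis) for each nuclear member at 20 CPM or more, by complex and role (x axis), at 8 and at 32 cells, with a bar at the median of each class, dotted lines at the medians of all genes tested and rings around X-linked genes. The assembly factors of complex I have the lowest median at 8 cells (-0.81), and Ndufa1 and Ndufb11 are the highest points at 32 cells.

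The accessory subunits with the largest differences between treated and control 32-cell cells, Ndufa1 and Ndufb11, are both on chromosome X, where the sex of the embryos bears on the comparison. Ndufa1 (chrX:37187588-37191163) was at 32.2 CPM (30.7 to 33.7) in control cells, which ran from 9.79 to 77.7 (median 26.3), and rose to 65.95 CPM (63.8 to 68.1) in treated cells, which ran from 1.88 to 142.5 (median 56.6), by 1.01, with 37 of 39 treated cells above the control median. Ndufb11 (chrX:20615326-20617619) was at 68.4 CPM (cells 19.9 to 219, median 61.2) and 133 CPM (63.8 to 220, median 127), a difference of 0.95, and all 39 treated cells lay above the control median. Since all control 32-cell cells were of the Y kind and all treated ones of the Xist kind, sex and treatment cannot be told apart at this stage.
Within control 8-cell cells, where both kinds occurred, Ndufa1 was at 39.5 CPM in 23 Xist and 18.5 CPM in 7 Y cells (1.05) and Ndufb11 at 104.03 and 46.7 CPM (1.14). Within treated 8-cell cells Ndufb11 was at 88.7 CPM in 14 Xist and 38.1 CPM in 8 Y cells (1.20), and Ndufa1 at 37.7 and 32.6 CPM. Cox7b, the X-linked subunit of complex IV, was at 16.8 and 0.877 CPM in Xist and Y cells of control 8-cell embryos and at 81.9 and 91.8 CPM in the 32-cell groups (0.16). Over the 213 tested genes of chromosome X the median difference between treated and control cells was 0.40 at 32 cells, and over the 192 tested at 8 cells it was -0.02.

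MiR-381-3p pairs with its targets through bases 2 to 8, given here in capitals. The complement of that seed was searched in the 3' untranslated regions of GENCODE M21 protein-coding transcripts, for genes of the count table. The mature sequence (RefSeq, GRCm38.p6, chr12:109726870-109726891, plus strand) is shown with the sites found in 2 subunits of complex I, in which capitals mark the match to the seed: Ndufab1 (chr7:122090870-122090899, minus strand), the acyl carrier protein, and Ndufv2, which holds the match at 2 places (chr17:66078989-66079018 and, at the start of the annotated region, chr17:66079475-66079493, minus strand).
mmu-miR-381-3p: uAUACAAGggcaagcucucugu
Ndufab1: gctctgttcaaCTTGTATttaaattgtctg
Ndufv2, downstream place: ctgtagccctgCTTGTATgtttaccaggct
Ndufv2, upstream place: CTTGTATtcaactgtaaaa
The match of 7 bases (CTTGTAT) was present in 3 of 89 nuclear members (3.37%; Atp5a1, Ndufab1 and Ndufv2), against 11.9% of 20738 genes, and the match of 8 bases (CTTGTATA) in none, against 3.33%. Between treated and control cells, Ndufv2 differed by -0.88 at 8 and 0.30 at 32 cells, Ndufab1 by 0.20 and 0.15 and Atp5a1 by -0.04 and -0.38, so none of them passed 2-fold and 1 of 3 was lower at both stages. Without the 3 treated cells of few genes Ndufv2 was past 2-fold at 8 cells (-1.14). A match is a run of letters and was not tested as a site. The shares of genes with a match were not adjusted for the length of the regions searched.

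Promoters were read for 72 of the 89 nuclear members (RefSeq, GRCm38.p6, from 250 bases before to 50 after the start) for motifs of factors known to drive respiratory genes, on both strands. The core of NRF1 (CGCATGCG) was in 10 of 72 members (13.9%) and 1.91% of 27025 promoters, the ETS core bound by GABP (CCGGAAG) in 16 (22.2%) and 9.12%, a YY1 motif (AAGATGGC) in 9 (12.5%) and 2.88%, and a GC box (GGGCGG) in 32 (44.4%) and 35.9%. Of the 14 members that rose with stage in both treatments 12 had a promoter in the table. Of these 12, none held the NRF1 or the ETS core, 2 held the YY1 motif (Ndufs4 and Ndufs6) and 5 a GC box. The windows are shown for both YY1 matches and for 3 members with the NRF1 core that rose in control embryos or in neither treatment, with the motif in capitals.
Ndufs4: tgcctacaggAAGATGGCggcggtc
Ndufs6: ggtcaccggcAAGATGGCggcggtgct
Uqcr11: atcgccttcaCGCATGCGctatacgtct
Uqcrc1: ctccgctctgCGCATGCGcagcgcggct
Cox6a1: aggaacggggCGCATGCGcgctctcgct
They lie at chr13:114388045-114388069 and chr13:73328433-73328459 (minus strand), chr10:80406809-80406836 (minus), chr9:108936669-108936696 (plus) and chr5:115349102-115349129 (minus). The YY1 matches start 35 and 33 bases after the annotated start. The levels of these factors at 32 cells were lower than at 8 cells, and their part in the differences of the members was not tested. Yy1 was at 221 and 59.6 CPM in control and 223 and 49.6 CPM in treated 8-cell and 32-cell cells and fell by 1.87 and 2.15, Gabpa was at 394 and 223 CPM in control (-0.82) and fell from 407 to 188 CPM in treated embryos (-1.11), and Nrf1 was at 163.1 and 125 CPM in control (-0.38) and fell from 176.7 to 83.7 CPM in treated embryos (-1.07).

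Of subunits with tissue-specific isoforms, the general form had the higher CPM, not scaled by length. Cox4i1 was at 371, 381, 457 and 441 CPM in control 8-cell, treated 8-cell, control 32-cell and treated 32-cell cells, and Cox4i2, the form of lung, at 2.80, 0.778, 0 and 0 CPM. Cox6a1 was at 160.9, 202, 249 and 286 CPM against at most 0.778 CPM for the muscle form Cox6a2. Cox8a was at 121, 95.8, 155.2 and 174.2 CPM, while Cox8b, the muscle form, and Ndufa4l2 were at 0 in all groups. Of the c-ring genes of ATP synthase, which encode the same mature protein, Atp5g1 led at 235, 227, 241 and 230 CPM, with Atp5g3 at 30.4, 25.98, 57.6 and 41.2 CPM and Atp5g2 at 4.70, 5.20, 9.36 and 10.9 CPM.
Cox7a1, the form of heart and muscle, was at 3.66, 3.58, 7.62 and 2.97 CPM, and the general form Cox7a2 at 135.2, 164.3, 179.7 and 193 CPM. Another tissue form with counts was Cox6b2, known from testis. Cox6b1 was at 130, 120, 204 and 188 CPM. Cox6b2 had a count in 2 of 30 control 8-cell, 0 of 24 treated 8-cell, 11 of 39 control 32-cell and 36 of 39 treated 32-cell cells. In the 32-cell groups its cells ran from 0 to 10.4 (median 0) and from 0 to 30.8 CPM (median 12.1), and the pooled levels were 1.17 (0.909 to 1.48) and 13.5 CPM (12.5 to 14.5), below the minimum of 20 CPM. It was at 7.98 to 17.8 CPM in the 3 runs of title numbers of treated cells and at 0.737 and 1.81 CPM in the 2 of control cells, and at 11.6 and 14.2 CPM in treated and 1.78 and 0.356 CPM in control ICM-like and TE-like cells. The gene was picked out after its values were seen, and sex and treatment cannot be told apart in it either.

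Nuclear members differed little between ICM-like and TE-like cells of the 32-cell stage, with a median of -0.09 for ICM-like against TE-like cells in control (76 tested, 29 above and 47 below 0) and 0.02 in treated embryos (40 above and 36 below). None passed 2-fold in either direction, beside 11.8% higher and 10.1% lower among all genes in control and 7.94 and 8.58% in treated embryos. The largest difference in control embryos was in Cox5a, at 257 CPM in ICM-like and 491 CPM in TE-like control cells (-0.93) and at 262 and 424 CPM in treated ones (-0.69). In treated embryos it was in Ndufaf6, at 22.2 and 12.9 CPM (0.74), which had the opposite sign in control embryos (-0.70). Ndufs4 was at 45.7 and 74.2 CPM (-0.69) in control and 46.8 and 64.8 CPM (-0.46) in treated cells. Complex V had class medians of -0.17 and -0.18. The rise of Ndufa1 in treated 32-cell cells was past 2-fold in ICM-like cells (76.9 against 31.0 CPM, 1.28) and that of Ndufb11 in TE-like cells (131.9 against 62.4 CPM, 1.07).

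Genes that work with the complexes but fall outside the naming rule were taken from lists of known function. Of all genes, 30.1% rose and 19.7% fell with stage in control and 29 and 18.7% in treated embryos. Complex II, which feeds electrons from succinate, rose in all 4 genes with stage in both treatments, with medians of 1.72 and 1.35. Sdha, its flavoprotein, was at 158.1 and 463 CPM in control and 94.3 and 356 CPM in treated embryos, and Sdhb, its iron-sulfur protein, at 77.02 and 290 and 106.4 and 286 CPM. Electron carriers rose in 4 of 7 in both treatments (medians 1.44 and 1.35), among them Cyc1, the cytochrome c1 of complex III, from 140 to 390 and from 145.01 to 372 CPM, and Etfdh, which passes electrons from fatty acid oxidation, from 16.1 to 83.97 and from 4.57 to 99.0 CPM. Cytochrome c itself (Cycs) was at 49.1 and 65.9 and 47.3 and 63.6 CPM.
Assembly factors of complex IV rose in 9 of 14 tested genes in control and 9 of 15 in treated embryos (medians 1.27 and 1.31), for example Cox15, which makes heme a, from 24.5 to 197 CPM in control, and 1 fell in treated embryos (Coa7, -1.03). Without the 3 treated 8-cell cells of few genes Coa7 was at -0.99, and Coa6 rose by 1.01 where it had differed by 0.80. Further assembly factors of complex I rose in 5 of 9 and 4 of 8 genes, with 1 that fell in each. Those of complex III rose in 2 of 4 and 2 of 6, with 1 that fell in each, and those of complex V in 1 of 3 and none of 2. Genes of coenzyme Q synthesis rose in 3 of 10 and 3 of 9, with 2 and 1 that fell, among them Coq8b in both (by 2.49 and 2.13). Mitochondrial ribosomal proteins rose in 19 and 14 of 75, below the share of all genes, and fell in 2 and 2, with medians of 0.53 and 0.25.
Genes of mitochondrial DNA replication and transcription showed no common direction with stage (medians 0.03 and 0.09, with 2 of 10 and 3 of 11 that rose and 2 and 1 that fell). For mitochondrial RNA processing 5 and 6 of 15 rose and 2 and 2 fell, and Lrpprc, which stabilises mitochondrial messenger RNA, rose from 93.0 to 344 and from 96.6 to 387 CPM (1.87 and 1.99). Of 6 nuclear regulators 1 rose and 1 fell in control, and 1 rose and 4 fell in treated embryos (Tfam is on this list and on that of replication and transcription), and 1 and none of 3 genes of ATP exchange rose.

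Between treated and control cells single genes of these lists passed 2-fold, beside 7.07% of all genes higher and 5.74% lower at 8 cells and 6.67 and 5.28% at 32 cells. At 8 cells Tfam, which packages and transcribes mitochondrial DNA, fell from 33.1 to 13.3 CPM (by 1.25) and Tefm, the elongation factor of mitochondrial transcription, fell by 1.73, while 2 of 72 mitochondrial ribosomal proteins rose and none fell. Of the other lists at 8 cells, 1 gene each rose in coenzyme Q synthesis, in the further assembly factors of complexes I, III and IV and in RNA processing, and 1 fell in RNA processing, while the gene that fell among regulators was Tfam again, which is on both lists. Without the 3 treated cells of few genes, Coq8b and Tmem126b no longer passed (0.91, and below 20 CPM in both groups), and Mterf4 (-1.10) and Pnpt1 (1.10) did. At 32 cells Slc25a4, which exchanges ATP for ADP across the inner membrane, fell from 1016 to 276 CPM (by 1.88), after 159.1 and 164.98 CPM at 8 cells, Polg, the mitochondrial DNA polymerase, fell by 1.43, and Pprc1, a coactivator of NRF1, by 1.34. Of the other lists at 32 cells, 1 gene rose in coenzyme Q synthesis, 2 rose among assembly factors of complex III, 1 rose and 1 fell among those of complex IV and 1 fell in RNA processing. No tested gene of complex II, of the electron carriers or of complex V assembly passed 2-fold between treated and control cells at either stage, and none of 75 mitochondrial ribosomal proteins at 32 cells. Etfdh, at 16.1 and 4.57 CPM at 8 cells (-1.62), was below the minimum of 20 CPM there.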

How the data were processed

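RNA of single mouse embryo cells was measured with Smart-seq2, which has no molecular identifiers. The deposited table holds, for each of 132 cells, estimated counts per gene that the authors made with STAR 2.5.1b and RSEM 1.3.0 on mm10 (GRCm38) and that are whole numbers as deposited; no further normalisation had been applied. Cells with at least 3000 genes and under 10% of counts in mitochondrial genes were kept by the study, and all 132 passed. Groups came from the labels of stage and treatment.

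Counts were summed per group and divided by the sum of all genes (CPM; pseudocount 1, minimum 20 CPM, 2-fold). Poisson and Clopper-Pearson intervals (95%) cover counting error only. The floor for a count of 0 was 3 counts. The sums were checked on simulated counts. With 1 sample per group no test was made, and the Wilcoxon test over cells that the study used was not run. Cells were clustered without the members with Seurat 5.3.0 (2000 variable genes, 25 principal components), and no doublet caller was run. Python 3.11.15 with pandas 2.3.3 and scipy 1.17.1, and edgeR 4.0.16 for the TMM factors, were used. Named genes were all mitochondrial members, isoform sets, X-linked members, the 3 largest differences per class and comparison, and related genes past 2-fold; the text gives a selection of these, and the values of some genes are not reported here. The members, lists and clusters' markers were chosen with earlier results of these data known. Runs of title numbers are consecutive numbers in the labels and served as a stand-in for processing order, which is not stated. Label numbers end in _a for every cell of the earlier stage and in _b for every cell of the later stage. Label series and stage therefore cannot be told apart. Runs were counted within a group, so no run holds both treatments. Leaving out runs cannot separate processing order from stage or treatment, and its part in the differences was not tested. No cell barcode or identical cell was shared.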

Additional observations from a re-analysis of the deposited data

Results flagged for a closer look

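Fastkd2, which takes part in the processing of mitochondrial RNA and is a related gene rather than a member, differed in opposite directions between the stages and between the treatments. Its pooled level was 36.0 CPM in control and 113.9 CPM in treated 8-cell cells, and 88.3 and 43.3 CPM at 32 cells. Treated against control cells, the difference was 1.63 at 8 cells and -1.01 at 32 cells on the log2(CPM + 1) scale. From 8 to 32 cells it was 1.27 in control and -1.38 in treated embryos, and the latter was -0.94, under 2-fold, without the 3 treated 8-cell cells under 5000 genes (83.8 CPM at 8 cells). It stood out because both differences passed 2-fold in opposite directions. The difference between the differences was not tested.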

How the results depend on the processing

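Of 252 alternative values 80 moved, which means by 0.1 or more on the log2 scale for a median, over 1.5 times for a count or beyond the counting interval for a share, and 1 more changed sign with both values at 0.1 or more in size. Medians near 0 changed sign in other settings too, as the values show. The cause of a move was not tested except where the setting itself shows it (fewer genes or cells). No paired analysis was possible because no test was made and the groups compared share no replicate number. At 8 cells, the mitochondrial median between treated and control cells (-0.35) was -0.13 with no minimum and -0.22 in Y cells, and the nuclear median (0.09) was -0.025 in Xist and 0.34 in Y cells. The count of nuclear members that rose (0) was 1 without mitochondrial counts in the total, under TMM, under median-of-ratios factors, in Xist cells and without the 3 treated cells under 5000 genes (an alternative chosen after seeing the data), 2 as a mean over cells and with no minimum, 5 at 1.5-fold and 8 in Y cells. The count that fell (2) was 5 as a mean over cells and at 1.5-fold, 1 at a minimum of 100 CPM and 4 in Y cells. At 32 cells, the mitochondrial median (-0.19) was -0.30 under TMM, -0.080 as a mean over cells, -0.086 after thinning to 544866 counts, -0.0045 with ICM-like cells alone and -0.019 with TE-like cells alone, and the nuclear median (0.09) was -0.014 under TMM and -0.0048 under median-of-ratios factors. The count that rose (1) was 0 under TMM, under median-of-ratios factors, after thinning and at 100 CPM, 2 with no minimum and 5 at 1.5-fold, and the count that fell (0) was 2 as a mean over cells and 1 with no minimum. From 8 to 32 cells in control embryos, the mitochondrial median (-0.61) was -0.75 under median-of-ratios factors, -0.76 as a mean over cells and -0.23 with no minimum, and the nuclear median (0.67) was 0.54 under median-of-ratios factors and 0.88 against 8-cell Y cells. The count that rose (23) was 15 at 100 CPM and 45 at 1.5-fold, and the count that fell (1) was 2 as a mean over cells and at 1.5-fold and 3 with no minimum. In treated embryos, the mitochondrial median (-0.56) was -0.69 under TMM, -0.76 under median-of-ratios factors, -0.45 as a mean over cells and -0.34 with no minimum, and the nuclear median (0.66) was 0.52, 0.45 and 0.80 under the first 3. The count that rose (20) was 44 at 1.5-fold, and the count that fell (0) was 1 with no minimum and against 8-cell Y cells. The mitochondrial share of counts as a mean over cells was 4.73 and 3.97% in control and treated 8-cell and 3.61 and 3.57% in 32-cell cells. It was 4.75 and 4.61% in control and 3.92 and 4.33% in treated Xist and Y 8-cell cells, 4.004% in treated 8-cell cells without the 3 cells, and 3.65% in TE-like control cells.

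Leaving out 1 run of title numbers at a time, the mitochondrial median at 8 cells ran from -0.38 to 0.21, the nuclear median from -0.023 to 0.11, and the counts that rose and fell from 0 to 6 and from 2 to 8. The reversal to 0.21, the 6 and the 8 came from leaving out the first control run, which leaves 2 control cells. At 32 cells the medians ran from -0.19 to 0.036 (the latter without the second control run) and from 0.06 to 0.14, and the counts from 0 (without the third treated run) to 2 (without the first) and from 0 to 0. With stage in control embryos the medians ran from -0.65 to -0.15 and from 0.52 to 0.69, and the counts from 19 to 24 and from 1 to 3, where -0.15, 0.52, 19 and 3 again rest on 2 control 8-cell cells. In treated embryos they ran from -0.75 to -0.39, from 0.61 to 0.70, from 17 to 21 and from 0 to 0. The share ran from 3.62 to 4.80% in control 8-cell, 3.498 to 3.89% in control 32-cell and 3.37 to 3.84% in treated 32-cell cells.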
